A study of Mus musculus with 20 samples.

Results

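The platelet-derived growth factor (PDGF) family was followed through cultured renal myofibroblasts, the matrix-producing cells that drive kidney scarring. Its 7 members were taken by name from a table of 51826 mouse genes. They are the ligands Pdgfa, Pdgfb, Pdgfc and Pdgfd, the receptors Pdgfra and Pdgfrb, and Pdgfrl, a gene for a receptor-like protein without a kinase. All 7 passed the filter on low counts that left 20407 genes for testing, and the lowest count of any member in any library was 32.

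PDGF ligands act as dimers that bring a pair of receptor chains together and switch on their tyrosine kinase activity. PDGF-A and PDGF-C act mainly through the alpha receptor, PDGF-D mainly through the beta receptor, and PDGF-B through both. PDGF-C and PDGF-D are secreted with an inhibitory domain that a protease must remove. In the kidney, the beta receptor marks pericytes, mesangial cells and fibroblasts, the alpha receptor marks interstitial fibroblasts, and PDGF signalling drives the growth of these cells in fibrosis.

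The cells were primary renal myofibroblasts from C57BL/6J mice, either wild type (WT) or WWP2-/-, with WWP2 being a ubiquitin ligase. Each genotype was studied untreated and after treatment with TGFβ1, the main profibrotic cytokine, and each of the 4 groups held 5 poly-A RNA-sequencing libraries. The knockout is carried by every cell of the animal and not by 1 cell type, and the cells had grown out of minced kidney pieces and had been passaged. The dose and duration of TGFβ1, the age and sex of the mice and any pooling of animals are not in the sample labels. The study's figure legends do give a dose and a duration for the RNA-sequencing of treated cultures. Nothing in the labels ties a library to a separate animal, so P values measure the spread between these libraries.

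Totals ran from 47520759 to 73063697 counts per library, and a count of 3 equalled at most 0.0613 CPM (counts scaled to the TMM-adjusted total of the library), a limit that covers counting error only. Wwp2 itself was 17.0 to 22.7 CPM in the 10 WWP2-/- libraries and 50.0 to 59.8 CPM in the 10 WT libraries, with no overlap. The fibroblast marker list summed to between 3987 and 33169.8 CPM over the libraries, and none of its 10 genes was below 1 CPM everywhere. The latter also held for the 10 macrophage and the 10 endothelial markers, so it does not set cell types apart. Acta2, the myofibroblast actin, was 38.9 CPM in untreated WWP2-/- replicate 3 and 50.4 CPM in TGFβ1-treated WWP2-/- replicate 1, against at least 1016 CPM in the other 18 libraries. Xist, the RNA made from the inactive X chromosome of female cells, exceeded 1 CPM in 11 libraries, of which 5 also held transcripts of Y-linked genes, and the remaining 9 held Y-linked transcripts without Xist. Libraries with Xist were 4 of 5 in each WT group, 2 of 5 in untreated WWP2-/- cells and 1 of 5 in treated WWP2-/- cells, so genotype and Xist were unevenly matched.

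The stretches just before the transcription start are shown for Pdgfra and Pdgfc, which had the smallest P values of the members that rose and of those that fell with the Xist level of the libraries. RefSeq promoter windows were at hand for 4 of the 7 members, and for these 2 the 250 bases before the start touched no annotated exon. The Pdgfra stretch is chr5:75152001-75152250 and the Pdgfc stretch is chr3:81036166-81036415, both on the plus strand of GRCm38.p6. Capitals mark a match, on either strand, to the TATA box TATAAA, the CCAAT box, the GC box GGGCGG, the AP-1 site TGACTCA or the SMAD box CAGACA.
Pdgfra: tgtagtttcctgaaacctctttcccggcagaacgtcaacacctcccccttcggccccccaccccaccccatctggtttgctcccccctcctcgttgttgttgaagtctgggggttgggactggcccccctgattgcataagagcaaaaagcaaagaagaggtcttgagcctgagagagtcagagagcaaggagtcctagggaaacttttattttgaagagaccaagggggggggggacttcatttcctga
Pdgfc: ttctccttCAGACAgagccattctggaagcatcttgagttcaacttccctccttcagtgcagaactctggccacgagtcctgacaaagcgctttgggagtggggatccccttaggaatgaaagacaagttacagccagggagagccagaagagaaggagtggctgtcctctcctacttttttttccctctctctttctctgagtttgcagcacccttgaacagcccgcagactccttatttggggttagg

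The Pdgfra stretch, with 54.4% G and C, held none of the 5 motifs. The Pdgfc stretch, with 50.8% G and C, held 1 of them, the SMAD box that begins 242 bases before the start. Over all 32851 RefSeq windows of that length, 12.4% held the TATA box, 33.8% the CCAAT box, 32.7% the GC box, 4.46% the AP-1 site and 17.1% the SMAD box.

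Levels were compared between genes per length, as TPM, which are counts divided by the length of all annotated exons and scaled to one total in every library. Pdgfrb was the most abundant member, at 281 ± 116 TPM (SD over 20 libraries), and ran from 72.7 to 446 TPM. Pdgfd followed at 101 ± 39.5 TPM and Pdgfa at 88.2 ± 28.2 TPM. The order of these ligands was not fixed, since Pdgfd exceeded Pdgfa in 14 of 20 libraries and the 2 changed places when the longest transcript was used as the length. Pdgfc came next at 61.1 ± 39.0 TPM and Pdgfb at 40.2 ± 29.4 TPM, with Pdgfa above Pdgfc in 18 libraries and Pdgfc above Pdgfb in 18.

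Pdgfra averaged 18.5 ± 19.5 TPM and Pdgfrl 12.6 ± 10.4 TPM. Pdgfb exceeded Pdgfra in 11 libraries and Pdgfra exceeded Pdgfrl in 10, so neither pair was separable beyond its spread. For Pdgfra the mean described few libraries, because it was between 5.54 and 58.9 TPM in the 11 libraries with Xist and between 0.207 and 0.725 TPM in the 9 without.

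**Figure D1:**
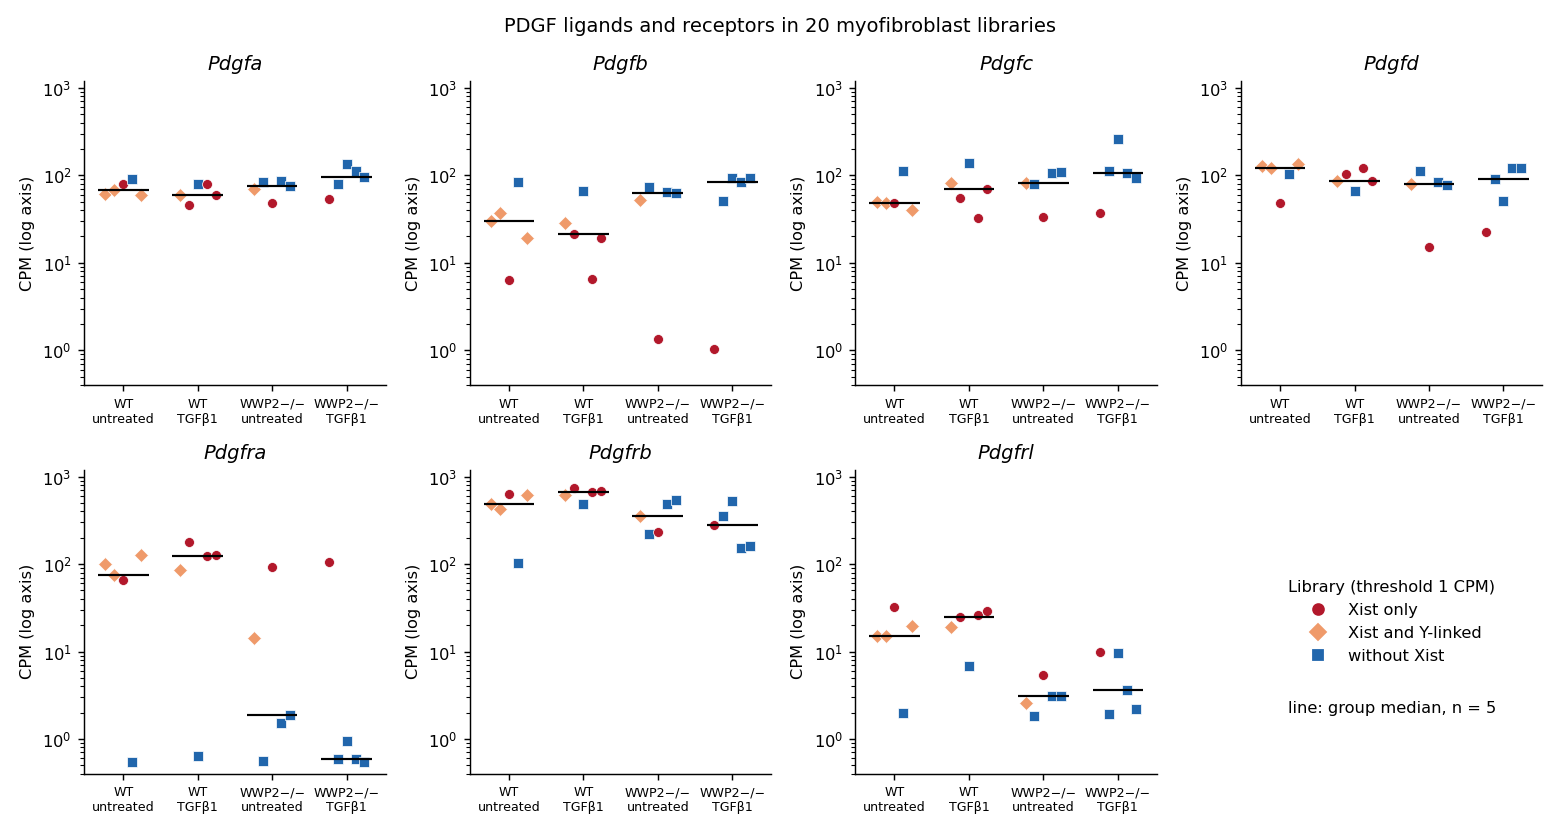
Level of each member in CPM (log axis) in the 20 libraries by group, with red circles for libraries with Xist only, orange diamonds for those with Xist and Y-linked transcripts, blue squares for those without Xist, and a line at the median of 5. Pdgfra lies at 14.4 CPM or more in every red or orange library and at 1.87 CPM or less in every blue one, and the blue squares of Pdgfb lie at or above 50.4 CPM.

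The alpha receptor gene Pdgfra, at chr5:75152292-75198215, had the widest range of the family on a fold scale. In untreated WT cells it was 100, 75.7, 66.5, 0.543 and 128 CPM in replicates 1 to 5, and in treated WT cells 84.6, 179, 0.639, 123 and 127 CPM. In untreated WWP2-/- cells it was 14.4, 0.56, 93.4, 1.52 and 1.87 CPM, and in treated WWP2-/- cells 105, 0.582, 0.948, 0.593 and 0.548 CPM. Every group thus held high and low libraries, and all 4 groups overlapped. The low libraries were WT replicates 4 (untreated) and 3 (treated) and 7 of the 10 WWP2-/- libraries, and these 9 were the libraries without Xist.

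The 11 libraries with Xist had a median of 100 CPM of Pdgfra and those without it 0.593 CPM, a 169-fold difference of medians. The lowest library with Xist stood 7.73-fold above the highest one without. Of all genes tested, 1.81% likewise had every library with Xist above every library without.

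Untreated WWP2-/- replicate 1 lay between these clusters. It held both Xist and Y-linked transcripts, with Xist at 13.0% and Pdgfra at 14.5% of the median of the 2 WWP2-/- libraries with Xist only. Those 2 libraries were also the ones low in Acta2. The 4 WT libraries with both kinds of transcript were set against the median of the 4 WT libraries with Xist only. Library by library, Xist and Pdgfra were 78.8% and 80.1% in untreated replicate 1, 47.8% and 60.6% in untreated replicate 2, 97.5% and 102% in untreated replicate 5, and 79.2% and 67.7% in treated replicate 1.

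**Figure D2:**
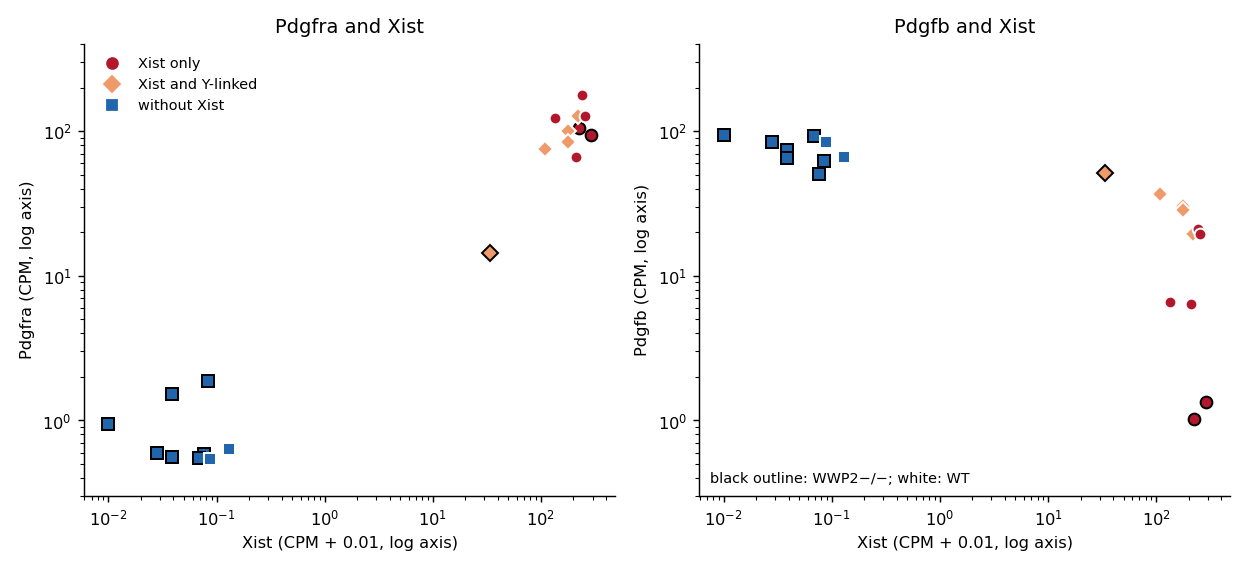
Pdgfra (left) and Pdgfb (right) in CPM against Xist (CPM + 0.01) in the 20 libraries, all axes logarithmic, with colours and shapes by Xist and Y-linked transcripts and a black outline for WWP2-/- libraries. Pdgfra falls into a high and a low cluster with untreated WWP2-/- replicate 1 between them at 14.4 CPM, and Pdgfb lies lowest, at 1.03 and 1.35 CPM, in the 2 WWP2-/- libraries with Xist only.

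A term for the Xist level, as log2(CPM + 1), was therefore fitted beside the 4 groups, a choice made after the data were seen. With edgeR's quasi-likelihood test, 5 of 7 members changed with it at an adjusted P below 0.05, against 35.1% of all genes tested. Pdgfra (coefficient 0.90 ± 0.05 SE per log2 unit of Xist, adjusted P = 8.61e-10) and Pdgfrl (0.21 ± 0.06, adjusted P = 0.0071) rose, in a direction shared by 17.1% of all genes. Pdgfra ranked 3 among the 20407 genes by P value. Pdgfa (−0.084 ± 0.018, adjusted P = 0.00185), Pdgfb (−0.38 ± 0.09, adjusted P = 0.00433) and Pdgfc (−0.18 ± 0.03, adjusted P = 0.000577) fell, as did 18.0% of all genes. The coefficients of Pdgfd (−0.12 ± 0.06, adjusted P = 0.141) and Pdgfrb (0.043 ± 0.053, adjusted P = 0.565) did not pass. That of Pdgfd passed by DESeq2's Wald test (−0.118, adjusted P = 0.036). By edgeR it passed with the replicate number as a block (−0.12, adjusted P = 0.0449). It also passed by edgeR without the libraries with both Xist and Y-linked transcripts (−0.188, adjusted P = 0.0291). Without the 2 WWP2-/- libraries low in Acta2, Pdgfa no longer passed by edgeR (adjusted P = 0.0931). The coefficient of Pdgfd then turned to 0.0235 (edgeR, adjusted P = 0.755).

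Some markers of cell types moved with Xist as well, where 17.1% of all genes rose and 18.0% fell. Of the 10 fibroblast markers, 5 rose and 1 fell with the Xist term. Median CPM with and without Xist was 502 and 13.9 for Dcn, 23.0 and 0.0431 for Lum and 40.5 and 3.02 for Fbln1. It was 44.4 and 2.41 for Thy1 and 28.2 and 0.295 for Fap, whereas Vim, which fell, had 2376 and 3355 CPM. All 10 macrophage markers fell, and of the 9 tubular epithelial markers tested 6 fell. Of the 10 endothelial markers 7 fell and 3 rose. Of the 10 pericyte and mesangial markers tested 1 rose and 2 fell, which is near the shares over all genes. The summed macrophage markers were 80.2 to 1130.2 CPM in libraries with Xist and 301 to 3913 CPM in those without. In bulk RNA, fewer cells of a type and less RNA per cell cannot be told apart, and the part of these markers in the Xist coefficients of the members was not tested.

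By the rule of likeness, the genes most correlated with Pdgfra over the 20 libraries among 13507 genes included Pi15 (Pearson r = 0.991) and Igf2bp3 (0.99), on log2(CPM + 1). Pi15 was 2.9 to 27.2 CPM in libraries with Xist and at most 0.866 CPM without it. The gene most opposite was Ift122 (r = −0.963), at 34.6 to 55.7 CPM with Xist and 57.0 to 65.1 CPM without. These values describe the 20 points, which fall into 2 clusters and share the Xist split.

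The beta receptor gene Pdgfrb split less sharply by Xist than Pdgfra did. In untreated WT cells it was 490.4, 425, 636, 104 and 609 CPM in replicates 1 to 5, and in treated WT cells 623, 742, 493, 662 and 694 CPM. In untreated WWP2-/- cells it was 351, 220.5, 230, 481 and 540.5 CPM, and in treated WWP2-/- cells 283, 354, 523, 152 and 162 CPM. The treated WT libraries were the most even, all at 493 CPM or more, and 2 of 5 untreated WT libraries and 1 of 5 in each WWP2-/- group reached into their range. The median of Pdgfrb was 609 CPM in the 11 libraries with Xist and 354 CPM in the 9 without, a 1.72-fold difference. Of the 11 libraries with Xist, 6 lay above all 9 without.

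The genes most like Pdgfrb over the 20 libraries were Kctd15 (r = 0.951), Cacna1c (0.951), a calcium channel subunit, and Ckap4 (0.95). The most opposite was Ccr1 (r = −0.968), a chemokine receptor of myeloid cells, at 0.143 to 15.9 CPM. The library lowest in Pdgfrb, untreated WT replicate 4, had the highest sum of the 10 macrophage markers, 3913 CPM. Treated WWP2-/- replicates 4 and 5, next lowest in Pdgfrb, had sums of 3503 and 2544 CPM. Among the remaining libraries, the 2 WWP2-/- libraries low in Acta2 had 230 and 283 CPM of Pdgfrb with the low macrophage sums of 90.8 and 87.3 CPM, so they lay off the inverse relation of the others. By group, the macrophage sum ran from 158 to 3913 CPM in untreated WT, 80.2 to 444 CPM in treated WT, 90.8 to 1761 CPM in untreated WWP2-/- and 87.3 to 3503 CPM in treated WWP2-/- cells.

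**Figure D3:**
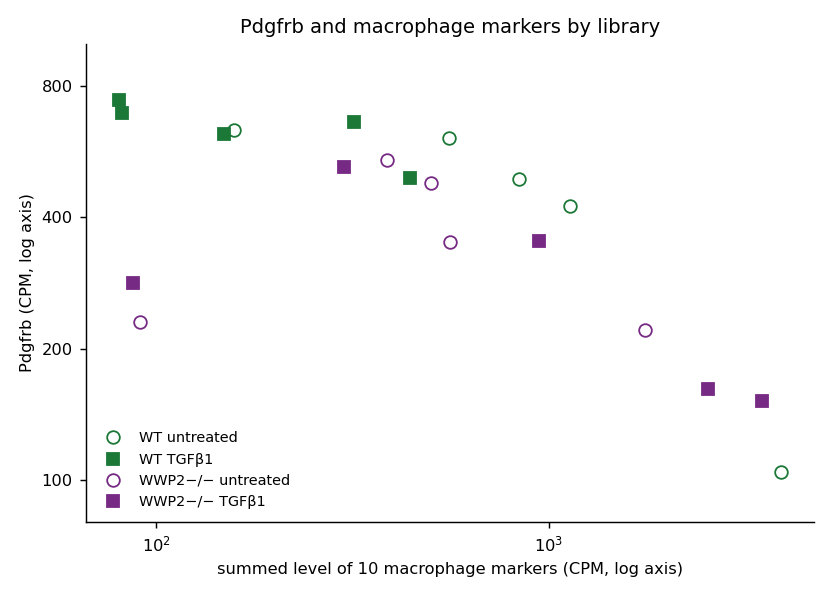
Pdgfrb in CPM against the summed CPM of 10 macrophage markers in the 20 libraries (both axes logarithmic), green for WT and purple for WWP2-/-, open circles untreated and filled squares with TGFβ1. Pdgfrb falls from 742 CPM where the sum is 80.2 CPM to 104 CPM where it is 3913 CPM, and the 2 WWP2-/- points at the lower left are the libraries low in Acta2.

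Pdgfrl lies at chr8:40926212-40990785, on the same chromosome as Wwp2 and 66.4 Mb away from it. It was 14.9, 15.1, 32.7, 1.99 and 19.8 CPM in untreated WT cells and 19.0, 24.7, 6.74, 26.4 and 28.8 CPM in treated WT cells. In WWP2-/- cells it was 2.56, 1.84, 5.44, 3.13 and 3.11 CPM untreated and 9.99, 1.91, 9.56, 3.63 and 2.18 CPM with TGFβ1. In each treatment, 4 of 5 WT libraries exceeded all 5 WWP2-/- libraries, and the fifth was the WT library without Xist.

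Among the ligands, Pdgfb had the largest spread on a fold scale. It was 30.4, 36.8, 6.4, 84.7 and 19.4 CPM in untreated WT cells and 28.6, 21.2, 66.7, 6.55 and 19.3 CPM in treated WT cells. It was 51.7, 74.6, 1.35, 65.4 and 62.5 CPM in untreated WWP2-/- cells and 1.03, 50.4, 93.6, 83.8 and 92.6 CPM in treated ones. The 9 libraries without Xist had a median of 74.6 CPM, 3.85-fold that of the 11 with Xist (19.4 CPM), and untreated WWP2-/- replicate 1 was the 1 library with Xist to reach into their range. The lowest values, 1.35 and 1.03 CPM, belonged to the 2 libraries low in Acta2. Without these 2, the Xist coefficient of Pdgfb by edgeR was −0.219 (adjusted P = 0.0151), against −0.383 with all libraries.

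Pdgfc followed the same division with a smaller fold. It was 49.1, 48.7, 48.9, 111 and 39.7 CPM in untreated WT cells and 81.1, 54.9, 138, 32.4 and 69.2 CPM in treated WT cells. It was 81.7, 79.1, 33.4, 106 and 109 CPM in untreated WWP2-/- cells and 37.4, 113, 261, 107 and 94.4 CPM in treated ones. Its median was 2.22-fold higher in libraries without Xist, and 9 of the 11 libraries with Xist lay below all 9 without.

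Pdgfa, the main ligand of the alpha receptor, was 59.4 to 90.4 CPM in untreated WT cells (median 68.4) and 46.3 to 80 CPM in treated WT cells (median 60.4). It was 48.3 to 86.2 CPM in untreated WWP2-/- cells (median 75.4) and 53.2 to 136 CPM in treated ones (median 94.6). Its median was 1.43-fold higher in libraries without Xist. The antisense gene 6330403L08Rik overlaps Pdgfa and had a mean of 18.5 CPM, and since the strand setting of the counting is not given in the sources used here, reads of these genes may not be separable.

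Pdgfd, the beta receptor ligand, was 47.9 to 135 CPM in untreated WT and 66.8 to 123 CPM in treated WT cells, with medians of 122 and 86.4 CPM. It was 15.1 to 112 CPM in untreated WWP2-/- and 22.8 to 122 CPM in treated WWP2-/- cells, with medians of 80.5 and 90.1 CPM. The lowest values, 15.1 and 22.8 CPM, belonged to the 2 libraries low in Acta2. The medians of libraries with and without Xist were close, at 86.4 and 90.1 CPM.

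Among themselves, the members formed opposed sets over the 20 libraries, described on log2(CPM + 1). Pdgfb and Pdgfc varied together (Pearson r = 0.808, and 0.843 after each group's mean was removed), as did Pdgfra and Pdgfrl (0.829, and 0.798). Pdgfra and Pdgfc were opposed (−0.823 in both forms), as were Pdgfra and Pdgfb (−0.755, and −0.816). Pdgfrb was nearer to Pdgfrl (0.734, and 0.705) than to Pdgfra (0.544, and 0.391). These points share libraries, depth and the Xist split.

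To ask whether loss of WWP2 changed the family in TGFβ1-treated myofibroblasts, WWP2-/- libraries were compared with WT libraries, 5 against 5. None of the 7 members passed an adjusted P of 0.05 by edgeR, where 6.07% of all genes did, 2.1% of all genes higher and 3.96% lower in WWP2-/- cells. At an unadjusted P below 0.05 there were 3 of 7 members, against 24.7% of all genes, and DESeq2's Wald test called 1, Pdgfrl, where it called 13.1% of all genes. The receptors were lower on average. Pdgfra was 21.6 ± 46.9 CPM in WWP2-/- and 103 ± 66.3 CPM in WT cells (mean ± SD, n = 5 each, log2 fold change −2.25 ± 1.67 SE, adjusted P = 0.43). Pdgfrb was 295 ± 153 against 643 ± 94.4 CPM (−1.12 ± 0.41, adjusted P = 0.0993). Pdgfrl was 5.45 ± 4.0 against 21.1 ± 8.82 CPM (−1.96 ± 0.60, adjusted P = 0.0586), and by DESeq2 it passed (adjusted P = 0.0117). Markers of cell types moved with genotype too. Of the 10 fibroblast markers 4 were lower in treated WWP2-/- cells (median log2 fold change −2.66), as were 2 of 10 endothelial and 1 of 10 pericyte and mesangial markers, and none of the macrophage (median 2.52) or tubular epithelial markers (median 2.02) passed. With the log2 of the summed macrophage markers as a covariate, chosen after the data were seen, the difference of Pdgfrb was −0.62 (adjusted P = 0.337), that of Pdgfrl −1.13 (adjusted P = 0.118) and that of Pdgfra −2.16 (adjusted P = 0.28). The part of the other markers in the receptor levels was not tested.

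The ligands had smaller differences or wider errors. Pdgfa was 95.3 ± 31.7 CPM in treated WWP2-/- and 65.0 ± 14.4 CPM in treated WT cells (log2 fold change 0.55 ± 0.22, adjusted P = 0.134). Pdgfb was 64.3 ± 39.5 against 28.4 ± 22.8 CPM (1.18 ± 0.91, adjusted P = 0.453). Pdgfc was 123 ± 83 against 75.1 ± 39.4 CPM (0.71 ± 0.45, adjusted P = 0.348). Pdgfd was 81.5 ± 43.7 against 93.0 ± 21.1 CPM (−0.19 ± 0.44, adjusted P = 0.837). With the macrophage markers as a covariate the differences were 0.30 for Pdgfa, −0.36 for Pdgfb, 0.39 for Pdgfc and −1.28 for Pdgfd, and the smallest adjusted P was that of Pdgfd (0.0563).

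A single library decided part of this. Without treated WWP2-/- replicate 1, the 1 treated WWP2-/- library with Xist and low in Acta2, Pdgfra (log2 fold change −7.29, adjusted P = 0.0255), Pdgfa (0.69, adjusted P = 0.0407) and Pdgfrl (−2.31, adjusted P = 0.0357) passed. Then 4 WWP2-/- libraries, all without Xist, stood against 5 WT libraries of which 4 had it, so genotype and Xist cannot be told apart in that fit. Pdgfrl also passed without treated WT replicate 3 (−2.19, adjusted P = 0.0248) or without treated WWP2-/- replicate 3 (−2.27, adjusted P = 0.0484). With Xist as a covariate, Pdgfb (−0.97, adjusted P = 0.569) and Pdgfc (−0.17, adjusted P = 0.804) turned in direction and still did not pass. The same covariate took Pdgfrl to −0.92 (adjusted P = 0.302), Pdgfra to −0.55 (adjusted P = 0.455) and Pdgfa to 0.14 (adjusted P = 0.674), whereas Pdgfrb was −0.91 (adjusted P = 0.267) and Pdgfd −0.895 (adjusted P = 0.344).

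Within libraries of like Xist status the genotype difference of Pdgfra in treated cells was small. On log2(CPM + 1) it was −0.23 between 1 WWP2-/- and 4 WT libraries with Xist. Between 4 WWP2-/- and 1 WT libraries without Xist it was 0.019. The 1 WWP2-/- library with Xist, replicate 1, was low in Acta2. The differences of Pdgfrb were −1.26 and −0.92 and those of Pdgfrl −1.21 and −0.75. Each stratum held a single library on one side, so no P value is given. For the ligands the differences were −0.175 and 0.371 (Pdgfa), −3.13 and 0.22 (Pdgfb), −0.577 and −0.0653 (Pdgfc) and −2.07 and 0.442 (Pdgfd). Among untreated libraries the strata held 2 WWP2-/- and 4 WT libraries with Xist, and 3 WWP2-/- and 1 WT libraries without. The 2 WWP2-/- libraries with Xist were unlike, since replicate 1 also held Y-linked transcripts and replicate 3 was low in Acta2. Their Pdgfra was 14.4 and 93.4 CPM, against 66.5 to 128 CPM in the 4 WT libraries with Xist. The genotype differences of Pdgfra, Pdgfrb and Pdgfrl each had opposite directions in the untreated strata. The differences were −1.25 and 0.538 for Pdgfra, −0.903 and 1.88 for Pdgfrb and −2.11 and 0.285 for Pdgfrl. The 1 WT library was untreated WT replicate 4, with the highest macrophage sum.

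The same comparison in untreated cells again called none of the 7 members by edgeR, where 0.725% of all genes passed, and 1 of 7 had an unadjusted P below 0.05 against 14.9% of all genes. Pdgfrl was 3.22 ± 1.35 CPM in WWP2-/- and 16.9 ± 11.0 CPM in WT cells (log2 fold change −2.40 ± 0.61, adjusted P = 0.0816). It passed by DESeq2 (adjusted P = 0.00265), which called 3.64% of all genes, without untreated WT replicate 4 (−2.72, adjusted P = 0.00678) and with the macrophage markers as a covariate (−2.59, adjusted P = 0.00366). With Xist as a covariate it was −1.43 and did not pass (adjusted P = 0.157). That replicate was the 1 untreated WT library without Xist, with the highest macrophage sum. Pdgfra was 22.4 ± 40.1 against 74.1 ± 47.5 CPM (−1.73 ± 1.64, adjusted P = 0.642), and with Xist as a covariate its difference turned to 0.22 (adjusted P = 0.782), while with the macrophage markers it was −4.25 (adjusted P = 0.0551). Pdgfrb was 365 ± 145 against 453 ± 213 CPM (−0.31 ± 0.40, adjusted P = 0.741), and was −0.39 with the macrophage markers (adjusted P = 0.526) and −0.089 with Xist (adjusted P = 0.933).

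For the ligands, the untreated log2 fold changes were 0.027 ± 0.221 for Pdgfa, 0.53 ± 0.90 for Pdgfb, 0.46 ± 0.45 for Pdgfc and −0.54 ± 0.44 for Pdgfd, with adjusted P values of 0.582 to 0.964. The intervals of all these ligands hold changes in either direction, that of Pdgfa being the narrowest. With Xist as a covariate Pdgfa (−0.26), Pdgfb (−0.80) and Pdgfc (−0.10) were on the other side of 0.

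TGFβ1 is known to induce PDGF ligands in several mesenchymal cells, and its effect was read in each genotype. In WT cells no member passed, nor did any of the 20407 genes (0% called), with 1397 genes at an unadjusted P below 0.05 and 27 called by DESeq2. The log2 fold changes of the 7 members lay between −0.32 (Pdgfb) and 0.51 (Pdgfrb, SE 0.40, adjusted P = 0.902). Pdgfrb was 453 ± 213 CPM untreated and 643 ± 94.4 CPM treated, and with the macrophage markers as a covariate its log2 fold change was 0.024 (adjusted P = 0.991). Within strata, it was 0.35 higher with TGFβ1 among 4 and 4 libraries with Xist, and 2.23 higher between the 1 treated and 1 untreated library without it, on log2(CPM + 1). The latter value compares a pair of libraries and has no replicate check. The 1 untreated library, replicate 4, was the library with the highest macrophage sum.

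In WWP2-/- cells no gene passed either (0% called), with 713 at an unadjusted P below 0.05 and 49 called by DESeq2. The members' log2 fold changes ran from −0.31 (Pdgfrb) to 0.76 (Pdgfrl). The interaction of genotype and TGFβ1 called no gene (0%), with 1424 at an unadjusted P below 0.05 and 10 by DESeq2. Its members lay between −0.81 (Pdgfrb, SE 0.57, adjusted P = 0.862) and 0.65 (Pdgfb, SE 1.27, adjusted P = 0.989). No member had an unadjusted P below 0.05 in these 3 comparisons, and none was called by DESeq2.

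The balance of the receptors was measured within each library as the log2 ratio of Pdgfra to Pdgfrb counts, which no scaling between libraries can alter. Its mean was −3.57 ± 2.28 in untreated WT, −3.88 ± 3.21 in treated WT, −6.20 ± 3.19 in untreated WWP2-/- and −7.20 ± 3.27 in treated WWP2-/- cells (SD, n = 5 each). Per length, Pdgfra made up a median of 8.88% and 9.06% of the transcripts of both receptors in untreated and treated WT cells. The median was 0.188% and 0.184% in untreated and treated WWP2-/- cells. The ranges overlapped, from 0.284% to 10.3% in untreated WT, 0.0707% to 11.7% in treated WT, 0.139% to 18.2% in untreated WWP2-/- and 0.0897% to 16.9% in treated WWP2-/- cells.

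The ratio did not differ between groups beyond the spread of libraries. With TGFβ1, WWP2-/- and WT cells differed by −3.32 (exact two-sided permutation P = 0.206, adjusted P = 0.516 over 5 comparisons), and untreated they differed by −2.63 (exact permutation P = 0.167, adjusted P = 0.516). TGFβ1 shifted it by −0.31 in WT (exact permutation P = 0.825) and by −0.995 in WWP2-/- cells (exact permutation P = 0.571), and the interaction was −0.69 (exact permutation P = 0.843). The smallest P that 5 against 5 libraries allow is 0.00794. Leaving out 1 library whose Xist status was the rarer one in its group took, in 3 of 5 cases, the genotype difference past 0.05 unadjusted, to −4.76 without treated WWP2-/- replicate 1 and −4.74 without treated WT replicate 3 (exact permutation P = 0.0476 each), and to −3.85 without untreated WWP2-/- replicate 3 (exact permutation P = 0.0397). It stayed short of that without untreated WT replicate 4 (−3.63, exact permutation P = 0.0794) or without untreated WWP2-/- replicate 1 (−3.03, exact permutation P = 0.167).

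Split by Xist, the ratio was −2.49 ± 0.90 in 11 libraries and −8.54 ± 0.66 in 9, and the Pdgfra share per length was 2.19% to 18.2% against 0.0707% to 0.284%, with no overlap. Among libraries with Xist, the 2 WWP2-/- libraries low in Acta2 had the highest shares, 18.2% and 16.9%. When genotypes were exchanged only within libraries of like Xist status, the treated difference changed sign. It was 1.03 in the stratum with Xist and 0.95 in the stratum lacking it, a mean of 0.99 toward Pdgfra in WWP2-/- cells. Each of these rests on a single library on one side, the WWP2-/- library low in Acta2 in the stratum with Xist and treated WT replicate 3 in the other, so no P value is given. In untreated cells the differences were −0.38 with Xist and −0.79 without. The first averaged 2 unlike WWP2-/- libraries, replicate 1 with both kinds of transcript (−4.61) and replicate 3 low in Acta2 (−1.30). The second was taken against a single WT library, so no P value is given here either.

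**Figure D4:**
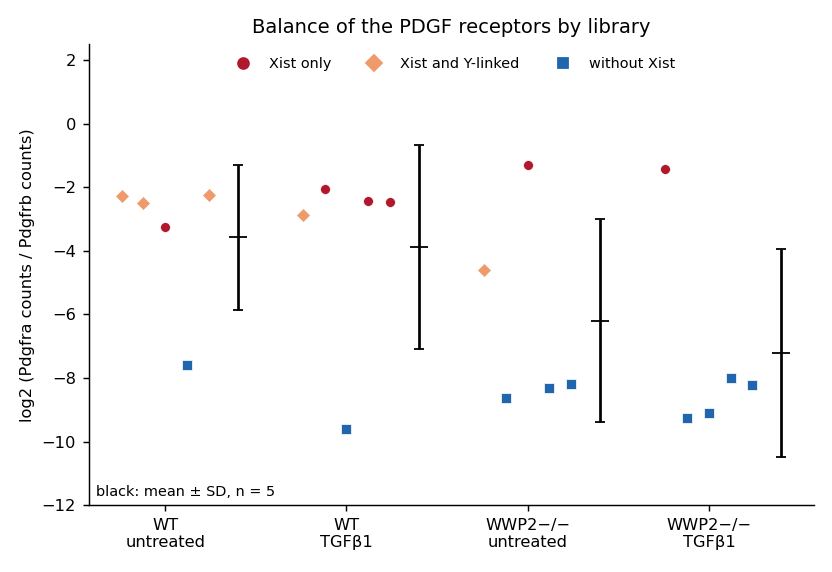
Log2 ratio of Pdgfra to Pdgfrb counts in each library by group, with colours and shapes by Xist and Y-linked transcripts and the mean ± SD of 5 libraries in black. Libraries without Xist lie between −9.59 and −7.58 in all 4 groups, and those with Xist between −4.61 and −1.30.

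The other genes of the pathway were read from lists chosen with earlier results of these data known. Of 12 genes that process or bind the ligands, 10 were tested, and 1 was lower in treated WWP2-/- cells, Pcsk6, a proprotein convertase (50.7 ± 15.5 CPM in WT, 6.99 ± 3.58 CPM in WWP2-/-, log2 fold change −2.86 ± 0.62, adjusted P = 0.0141). Pcsk6 was also lower untreated (−2.75 ± 0.61, adjusted P = 0.0446) and no longer passed when Xist was added to the fit (−3.27, adjusted P = 0.0654). The median log2 fold change of this list was −0.044 with TGFβ1, against 0.050 over all genes.

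Of 37 effectors that dock on the activated receptors or act below them, 1 rose and 3 fell in treated WWP2-/- cells, and the counts of this and the following lists stand against 2.1% higher and 3.96% lower over all genes. Akt2, a survival kinase, fell (−0.57 ± 0.12, adjusted P = 0.0121), as did the docking protein Gab1 (−0.61 ± 0.16, adjusted P = 0.0347). The list's median was −0.10. Of 21 genes that dampen receptor signals, 2 rose and 1 fell with a median of 0.22. The 2 of smallest P were the Ras pathway inhibitor Spred1 (−0.49 ± 0.12, adjusted P = 0.0264) and the phosphatase Ptpn2 (0.54 ± 0.14, adjusted P = 0.033).

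Of 21 growth factor response genes, 2 rose and none fell, with a median of 0.57. They were Jun (65.1 ± 13.4 CPM in WT, 135 ± 15.2 CPM in WWP2-/-, 1.05 ± 0.22, adjusted P = 0.0129) and Egr2 (1.78 ± 0.45, adjusted P = 0.0277), both transcription factors of the early response. Of the 12 genes tested among the related VEGF, KIT and CSF1 ligands and receptors, 2 fell and none rose, with a median of 0.67. They were the lymphatic growth factor Vegfd (250 ± 160 CPM in WT, 7.5 ± 7.73 CPM in WWP2-/-, −5.06 ± 1.02, adjusted P = 0.0121) and the VEGF receptor Kdr (−1.76 ± 0.47, adjusted P = 0.0351). Of 15 genes of the TGFβ1 response, 3 fell, among them the collagen cross-linking enzyme Lox (−2.0 ± 0.53, adjusted P = 0.034), and the list's median was 0.11.

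These calls were also read with Xist as a covariate. Of the genes named here for treated cells, Pcsk6 (−3.43, adjusted P = 0.0322), Akt2 (−0.46, adjusted P = 0.0495), Gab1 (−0.81, adjusted P = 0.0267) and Jun (0.82, adjusted P = 0.0404) still passed by edgeR. The others kept their direction and did not pass. They were Vegfd (−3.08, adjusted P = 0.0598), Egr2 (1.16, adjusted P = 0.0828), Ptpn2 (0.45, adjusted P = 0.0946), Spred1 (−0.30, adjusted P = 0.103), Kdr (−1.07, adjusted P = 0.186) and Lox (−1.07, adjusted P = 0.188), of which Ptpn2 moved least. Vegfd had a median of 246 CPM in libraries with Xist and 4.96 CPM in those lacking it.

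In untreated cells, where 0.725% of all genes were called, no gene of these 6 lists passed apart from Pcsk6 and Vegfd (−4.40 ± 0.99, adjusted P = 0.0467, and −2.28 with Xist as a covariate, adjusted P = 0.174). None passed in the TGFβ1 comparisons or the interaction. With the Xist term, which called 17.1% of all genes higher and 18.0% lower, 12 effectors rose and 4 fell, 3 dampening genes rose and 6 fell, and 9 growth factor response genes rose and 3 fell. Of the related ligands and receptors 7 rose and 3 fell, of the ligand-processing genes 1 rose and 3 fell, and of the TGFβ1 response genes 2 rose and 6 fell.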

How the data were processed

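Per the labels and the study's methods, poly-A RNA of cultured renal myofibroblasts was sequenced and aligned by the authors to GRCm38, and the deposited values are whole-number read counts per gene without normalization. Of the 51826 genes, 51633 were named from GENCODE release M21 on GRCm38. The filter required 5 or more counts in 5 or more libraries. Counts were normalized by TMM and fitted in edgeR 4.0.16 (R 4.3.3) with 4 groups, glmQLFit and glmQLFTest, and Benjamini-Hochberg adjustment over all genes tested at 0.05. The standard error is the log2 fold change divided by the square root of F. CPM use TMM-scaled totals, and TPM use the length of all annotated exons. The receptor ratio was compared by exact permutation. The fit was tested on simulated data. Alternatives included DESeq2 1.42.0. The members, lists and tests were chosen with earlier results of these data known.

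The text names the 7 members, Wwp2, Xist, Acta2, the 3 most and 1 least correlated genes of each receptor, and for each pathway list the 2 genes of smallest adjusted P, if past the threshold, in treated WWP2-/- against WT cells and in TGFβ1-treated against untreated WT cells. Promoter stretches of the remaining 5 members and protein sequences were not used here. Some genes that this rule names are not reported here.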

Additional observations from a re-analysis of the deposited data

Results flagged for a closer look

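In 6 of 32 sets of 5 libraries, 1 library stood far from the other 4 by Dixon's criterion at 95% (a gap over 0.71 of the range). Its chance rate of about 1 in 20 holds for independent sets of normal values. These sets share libraries and the ratio is built from Pdgfra, so their count cannot be set against that rate. Pdgfc was 111 CPM in untreated WT replicate 4, which has no Xist. Pdgfra was 93.4 CPM in untreated WWP2-/- replicate 3 and 105 CPM in treated WWP2-/- replicate 1, both with Xist and low in Acta2. The log2 ratio of Pdgfra to Pdgfrb was −1.42 in treated WWP2-/- replicate 1. It was −7.58 in untreated WT replicate 4 and −9.59 in treated WT replicate 3, each the 1 library of its group without Xist.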

How the results depend on the processing

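The lowest count of any member was 32. The groups differed in how many libraries had Xist, and 2 WWP2-/- libraries were low in Acta2. None of the 7 members was called in the 5 comparisons of groups, and this held under the other settings apart from those given here. In treated WWP2-/- against WT cells, 1 member was called by DESeq2, 3 without the 2 WWP2-/- libraries low in Acta2 (chosen after seeing the data), and 0 to 3 with 1 library left out. In untreated cells, 1 was called by DESeq2, 1 with the macrophage markers as a covariate (chosen after seeing the data), and 0 to 1 with 1 library left out. With the Xist term, 5 to 6 were called with 1 library left out. It called 6 by DESeq2, with the replicate block or without the libraries with both kinds of transcript. Without the 2 libraries low in Acta2 it called 4.

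In treated cells the log2 fold changes of Pdgfb and Pdgfc turned to −0.971 and −0.168 with Xist as a covariate, that of Pdgfb to −0.36 with the macrophage markers, and that of Pdgfd to 0.0373 without the 2 libraries low in Acta2 (−0.4 to 0.0252 with 1 library left out). In untreated cells Xist as a covariate turned Pdgfa, Pdgfb, Pdgfc and Pdgfra to −0.263, −0.803, −0.104 and 0.216. That of Pdgfa was −0.198 without the libraries with both Xist and Y-linked transcripts and −0.0708 to 0.125 with 1 library left out. The Xist coefficient of Pdgfd was 0.0235 without the 2 libraries low in Acta2, and that of Pdgfrb was −0.0172 to 0.0872 with 1 library left out.

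The difference in the log2 ratio of Pdgfra to Pdgfrb was 0.991 within libraries of like Xist status in treated WWP2-/- against WT cells. For TGFβ1 in WT it was 0.0325 with medians and 1.29 without the libraries with both kinds of transcript. With 1 library left out it was −4.76 to −2.8 (treated genotypes), −3.85 to −2.02 (untreated genotypes), −1.31 to 1.12 (TGFβ1 in WT), −2.44 to 0.231 (TGFβ1 in WWP2-/-) and −2.13 to 0.538 (interaction). The causes were not tested.

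Same-numbered libraries deviated together in some pairs only (correlations of −0.538 to 0.502), so the numbers were not taken as pairs, and the replicate block left 0 of 7 members called in the 5 comparisons of groups. With the block, Pdgfra was −5.83 in treated cells (adjusted P = 0.186) and Pdgfrl −2.31 in untreated cells (adjusted P = 0.178).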
